A study of Ovis aries with 40 samples.

Results

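The genes described here make up the calcium cycle of the sarcoplasmic reticulum, the internal membrane store from which a muscle fibre releases calcium to contract and into which it pumps calcium to relax. The members were chosen by name, with earlier results of these data known: ATP2A1, ATP2A2, CASQ1, RYR1, SRI, SLN, PLN and PVALB. Every probe set of the array whose annotation gave 1 of these symbols alone was taken, and the brightest of them on average stood for its gene. Of the 8 genes, 5 had at least 1 such probe set, and together they had 13 of the 24128 probe sets. CASQ1, RYR1 and PVALB had none in the annotation used and were not analysed here. All 5 measured members passed the filter on low signals, a mean signal of at least 61.8, which left 6360 of 9155 genes for testing.

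In skeletal muscle, calcium leaves the store through the ryanodine receptor RYR1 and is returned by the SERCA pumps, of which ATP2A1 (SERCA1) is the form of fast fibres and ATP2A2 (SERCA2) gives the form of slow fibres and heart. Sarcolipin (SLN) and phospholamban (PLN) are small membrane proteins that bind the pumps and lower their activity. Sorcin (SRI) is a cytosolic calcium-binding protein that binds the ryanodine receptor and reduces its opening. Calsequestrin (CASQ1) holds calcium inside the store, and parvalbumin (PVALB) binds it in the cytosol of fast fibres.

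RNA came from the LM muscle, the long loin muscle beside the spine, of 40 progeny of Poll Dorset sires, all untreated and all sampled at 78 weeks, with 1 array per animal. The 19 animals of the high muscling group were progeny of sires 11 (8 animals), 2 (7 animals) and 7 (4 animals), and the 21 of the low muscling group were progeny of sires 16 (8 animals), 17 (5 animals) and 5 (8 animals). The groups were set by the estimated breeding value of the sire for eye muscle depth, not by the muscle of the animal itself, and each sire had progeny in 1 group only. The muscling comparison is thus one of 3 sires with 3 sires. Sheep RNA was hybridised to an array of bovine probes, so a signal depends on how well a probe matches the sheep transcript. Signals are therefore compared below between animals, and are not used to rank genes by amount of RNA.

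Median signals of the arrays lay between 56.1 and 67.1, the correlation between arrays had a median of 0.917, and no pair of arrays was identical. The tissue label was borne out by its markers: ACTA1, CKM, MB and DES had summed signals of 68391 to 98881 in the high and 71092 to 104387 in the low muscling group, and none of these 4 genes was called between the groups. Of the 6 slow fibre and the 6 fast fibre sarcomere genes detected, none was called either. Among markers of other cells, all 4 fibroblast genes (COL1A1, COL1A2, COL3A1 and DCN) and 1 of 4 smooth muscle genes (TAGLN) were lower in high muscling, and no detected adipocyte, endothelial or leukocyte gene was called.

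Between the muscling groups, SRI was the member called on its main probe set, with a signal 1.95-fold lower in high muscling. ATP2A1, ATP2A2, PLN and SLN had fitted differences of 0.18, 0.28, 0.23 and 0.03 on the log2 scale, all on the side of high muscling and none past the threshold (adjusted p = 0.207, 0.0765, 0.556 and 0.839). On main probe sets the call thus held for 1 of the 5 members, against 7.78% of the 6360 genes tested (2.28% higher and 5.50% lower in high muscling). Of the other probe sets, 1 of ATP2A1 and 1 of ATP2A2 were called as higher in high muscling, as given below. Among sires of the same muscling group, 3 of 5 members differed (ATP2A1, PLN and SRI), against 22.0% of all genes. These p-values came from limma, with sire as a random block for muscling and an F test over sire means for sires, and were adjusted by Benjamini-Hochberg over all genes tested.

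**Figure D1:**
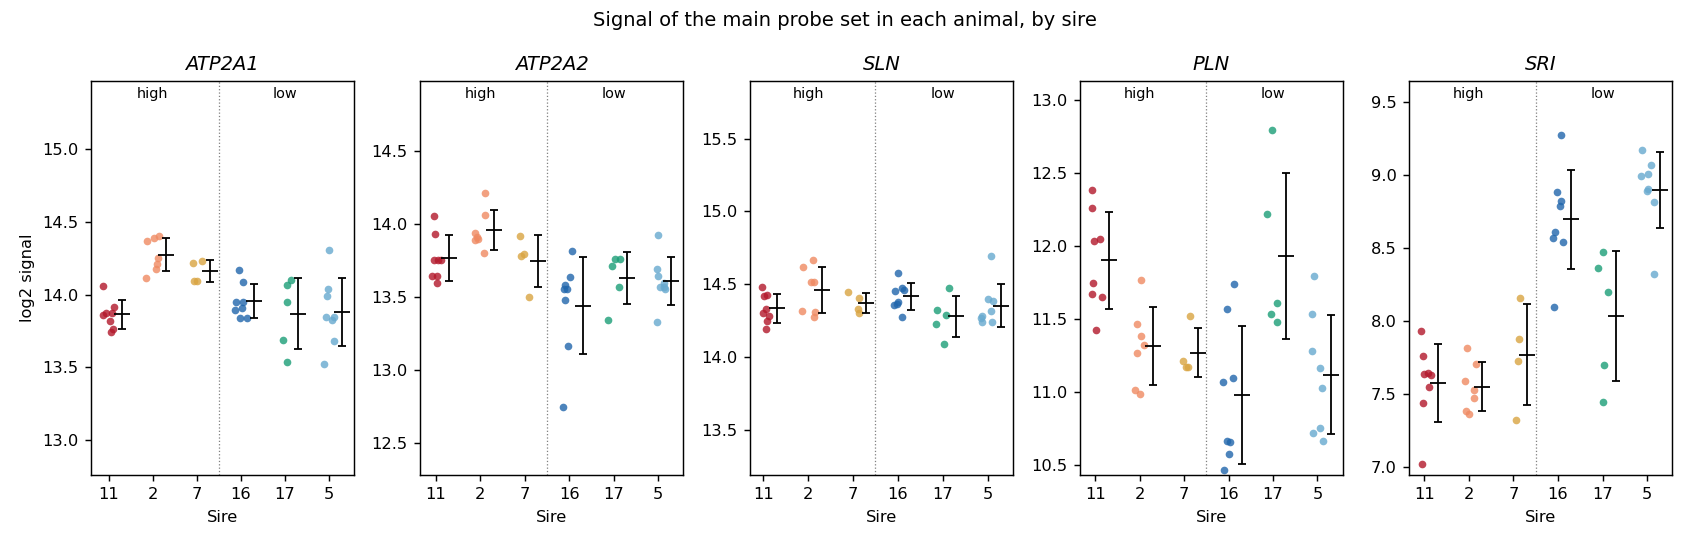
Signal (log2, vertical axis) of the main probe set of the 5 members in every animal, by sire, with the high muscling sires 11, 2 and 7 on the left of each panel and the low muscling sires 16, 17 and 5 on the right. Points are animals, and the bars give the mean and SD of each sire's progeny. The scale spans the same log2 range in all panels. SRI was lower in the high muscling sires, ATP2A1 was higher in sires 2 and 7 than in sire 11, and PLN stood high in sires 11 and 17.

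ATP2A1, the calcium pump of fast fibres, had signals of 13721 to 21644 (median 17512) in the 19 high muscling animals and of 11800.1 to 20244 (median 15363) in the 21 low muscling animals. The groups overlapped widely: 13 of 19 high muscling animals lay above the low muscling median, 3 lay above every low muscling animal, and 4 low muscling animals lay below every high muscling animal. Mean signals were 17459.8 ± 2568 (SD, n = 19) and 15491 ± 2068 (SD, n = 21). The fitted difference of 0.18 (SE 0.09, 95% interval 0.01 to 0.36) did not pass the threshold over all genes. That outcome depended on the probe set. In the limma fits the second ATP2A1 probe set differed by 0.44 (adjusted p = 0.00634 over all probe sets). The mean of both differed by 0.31 (adjusted p = 0.0206).

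The ATP2A1 signal differed among the high muscling sires. The progeny of sire 2 had a mean of 19855 ± 1562 (SD, n = 7), those of sire 7 one of 18303 ± 955 (SD, n = 4) and those of sire 11 one of 14943 ± 1048 (SD, n = 8). The low muscling sires 16, 17 and 5 lay close together, with means of 15929.6 ± 1342 (SD, n = 8), 15139 ± 2476 (SD, n = 5) and 15272 ± 2559 (SD, n = 8). All 7 progeny of sire 2, the high muscling sire of highest mean, lay above all 8 of sire 11, that of lowest mean, at 17716 to 21644 against 13721 to 17095. The share of genes with 2 sires so separated was not counted. The limma F test among sires within groups gave an adjusted p of 0.0111. It did not pass without sire 2 (adjusted p = 0.196) or without sire 11 (0.800), whereas without sire 11 the muscling difference was 0.32 and passed (adjusted p = 0.0112). The second ATP2A1 probe set ordered these sires the other way, with means of 13044 for sire 11 and 11872 for sire 2, and its sire test did not pass (adjusted p = 0.330). Nor did that of the mean of both probe sets (0.548), of median-centred arrays (0.0526) or of the fit with the control ratio of RNA integrity described below (0.0663).

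ATP2A2, the pump of slow fibres and heart, had signals of 11576 to 18993 (median 14279.8) in high and of 6879 to 15538 (median 12174) in low muscling. Of the high muscling animals, 18 of 19 lay above the low muscling median, and 5 lay above every low muscling animal. Likewise 5 of the 21 low muscling animals lay below every high muscling animal. The means were 14703 ± 1807 (SD, n = 19) and 12152 ± 1867 (SD, n = 21). The fitted difference was 0.28 (SE 0.10, 95% interval 0.08 to 0.47), with an adjusted p of 0.0765, so the size of the difference was larger than its error but not past the threshold over all genes.

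The ATP2A2 means of the high muscling sires were 14006 ± 1579 (SD, n = 8) for sire 11, 15989.8 ± 1574 (SD, n = 7) for sire 2 and 13844 ± 1637 (SD, n = 4) for sire 7. Those of the low muscling sires were 11362 ± 2313 (SD, n = 8) for sire 16, 12746 ± 1482 (SD, n = 5) for sire 17 and 12571 ± 1478 (SD, n = 8) for sire 5. On the main probe set all 3 high muscling sires thus lay above all 3 low muscling sires. That pattern was found in 1 direction or the other in 19.3% of genes tested. An exact two-sided permutation test on the 6 sire means of log2 signal gave p = 0.1, the smallest p that 3 against 3 allows. Sires within groups were not called on the main probe set (adjusted p = 0.296). Without sire 11 or without sire 17 the muscling difference passed, at 0.32 (adjusted p = 0.0387) and 0.31 (adjusted p = 0.0284). It did not pass without sire 2 (0.20, adjusted p = 0.337) or without sire 5 (0.31, adjusted p = 0.263). With 1 mean per sire as the sample it was 0.26 (limma, adjusted p = 0.399). ATP2A2 also correlated with the signal of control RNAs added at hybridisation (r = 0.491 over 40 arrays). With their mean as a covariate the difference was 0.21 (adjusted p = 0.279).

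Of the pump inhibitors, SLN varied least. Its signals ran from 18769 to 26027 (median 20591) in high and from 17467 to 26554 (median 20996) in low muscling, with 9 of 19 high muscling animals above the low muscling median. The means were 21544 ± 1949.6 (SD, n = 19) and 21143 ± 2009 (SD, n = 21), and the fitted difference was 0.03 (SE 0.07, 95% interval −0.10 to 0.17, adjusted p = 0.839). Sire means lay between 20005 (sire 17) and 22665 (sire 2), and sires within groups were not called (adjusted p = 0.415). Over all animals the SD of SLN was 0.13 on the log2 scale, and 0.566% of the genes tested had a lower one. Among the measured members the SD was smaller the higher the mean signal, and whether signal level sets the spread was not tested.

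PLN, the inhibitor best known from slow fibres and heart, varied much more, with an SD of 0.53 on the log2 scale against a median of 0.38 over genes. Its signals were 2031 to 5339 (median 2830.4) in high and 1415 to 7126 (median 2299.9) in low muscling. Of the high muscling animals 17 of 19 lay above the low muscling median, and 7 low muscling animals lay below every high muscling animal, but the highest animal of all was of low muscling. The means of 3127 ± 948 (SD, n = 19) and 2679.6 ± 1327 (SD, n = 21) gave a fitted difference of 0.23 (SE 0.20, 95% interval −0.18 to 0.64, adjusted p = 0.556).

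The PLN signal differed among sires of the same group. In each group 1 sire stood high: sire 11 in high muscling, with 3919.8 ± 902 (SD, n = 8), and sire 17 in low muscling, with 4172 ± 1825 (SD, n = 5). The other two high muscling sires had means of 2589 ± 497 (SD, n = 7, sire 2) and 2483 ± 309.5 (SD, n = 4, sire 7), and the other two low muscling sires had 2123 ± 747 (SD, n = 8, sire 16) and 2303 ± 682 (SD, n = 8, sire 5). The 5 progeny of sire 17 had PLN signals of 3133, 7126, 2861, 4768 and 2973. The 4 of sire 7 had 2369, 2312, 2307 and 2946. Ranked by mean, sires 17 and 11 came first, and the step from sire 11 to sire 2, the next in order, was 0.59 on the log2 scale (95% interval 0.18 to 0.99), while the other steps between neighbours had intervals that included 0. The F test among sires gave an adjusted p of 0.00179. Without sire 17 it was 0.0622, and the muscling difference then reached 0.48 (adjusted p = 0.0463). PLN was also the member that moved most with the 3′ to 5′ signal ratio of the GAPDH control probe sets, a measure of RNA integrity (r = 0.447 over 40 arrays, mean log2 ratio 0.30 in high and 0.23 in low muscling). With that ratio as a covariate, an alternative added after seeing the data, the muscling difference of PLN was 0.12 and the sire test gave an adjusted p of 0.00387.

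SRI, which quiets the release channel, had signals of 129.5 to 285 (median 198) in the 19 high muscling animals and of 174 to 619 (median 442) in the 21 low muscling animals. The groups were nearly separate: 18 of 21 low muscling animals lay above every high muscling animal, and all 19 high muscling animals lay below the low muscling median. The means were 198 ± 35.1 (SD, n = 19) and 411 ± 118 (SD, n = 21). The fitted difference of −0.96 on the log2 scale (SE 0.15, 95% interval −1.28 to −0.65) had an adjusted p of 1.66e-04. As a fold it was 1.95 (95% interval 1.57 to 2.42) lower in high muscling, and it ranked 7 by p and 47 by size among the 6360 genes. How many of these genes separated the animals as far was not counted. Only 1 of the 3 SRI probe sets exceeded the detection level. Since the tissue was taken whole, fewer cells of a kind and less RNA per cell cannot be told apart here.

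The SRI means of the high muscling sires were 194 ± 33.4 (SD, n = 8, sire 11), 189 ± 22.3 (SD, n = 7, sire 2) and 223 ± 52.1 (SD, n = 4, sire 7). Those of the low muscling sires were 425 ± 99.9 (SD, n = 8, sire 16), 272 ± 78.2 (SD, n = 5, sire 17) and 483 ± 77.2 (SD, n = 8, sire 5). Sire 17 lay between the rest of its group and the high muscling sires, with SRI signals in its 5 progeny of 293.5, 174, 208, 329 and 356, beside 212, 159.7, 285 and 235 in the 4 progeny of sire 7. The progeny of these 2 sires overlapped. The step from sire 16 to sire 17 was 0.66 (95% interval 0.31 to 1.01), that from sire 17 to sire 7 was 0.27 (95% interval −0.14 to 0.68), and the other neighbours in the order also had intervals that included 0. The F test among sires gave an adjusted p of 0.00375, which became 0.514 without sire 17. All 3 low muscling means lay above all 3 high muscling means (exact permutation test on sire means, p = 0.1, the smallest possible). Sire means separated the groups in 1 direction or the other in 19.3% of genes tested. Leaving out each sire in turn gave fitted differences of −1.18 to −0.78, all of them called, the least firmly without sire 5 (adjusted p = 0.0423). With 1 mean per sire as the sample, the difference was −0.91 and not called (adjusted p = 0.198), as was true of all 6360 genes in that fit, of which 886 had an unadjusted p under 0.05.

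Other measurements were set beside SRI. The summed signal of the 4 fibroblast genes was 4534 to 11227 (median 7831) in high and 7108 to 21495 (median 11567) in low muscling, and the log2 differences of COL1A1, COL1A2, COL3A1 and DCN were −0.83, −0.78, −1.08 and −0.37. The summed signal of the 4 smooth muscle genes was 3762 to 6404 in high and 4028 to 7763 in low muscling, and MYH11 differed the other way (0.07). Endothelial genes had median sums of 1437 in high and 1957 in low muscling, with VWF differing the other way (0.24). Leukocyte genes had median sums of 283 and 365. Whether any of these sums followed SRI from animal to animal was not tested. The part of these cells in the SRI difference was not tested. The control RNAs added at hybridisation, 9 probe sets, had a mean log2 signal of 11.12 in high and 11.02 in low muscling, and correlated with SRI over the arrays (r = −0.503). With their mean as a covariate the SRI difference was −0.89 (adjusted p = 0.00281).

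The share of the total variance that lay between muscling groups, between sires of a group and within sires differed among the members. For SRI, 64.4% lay between the groups, 15.9% between sires and 19.7% within sires. For ATP2A2 the shares were 30.8%, 12.7% and 56.5%. For ATP2A1 they were 15.5%, 37.0% and 47.5%, and for PLN 7.95%, 43.3% and 48.8%. For SLN they were 1.17%, 17.9% and 80.9%. The median gene had 5.44% between groups, 16.1% between sires and 74.1% within sires, so SRI and ATP2A2 stood high in the first share, PLN and ATP2A1 in the second, and SLN low in the first.

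The other probe sets of a member measure other stretches of its transcripts and need not follow the main one. In a fit over all 24016 probe sets other than controls, 3 of the 13 probe sets of members were called for muscling, against 4.94% of all probe sets. These were the main probe set of SRI (−0.98, adjusted p = 4.74e-05), the second of ATP2A1 (0.44, SE 0.10, adjusted p = 0.00634) and a dimmer one of ATP2A2 (mean signal 658, 0.59, SE 0.16, adjusted p = 0.0246). The share of 4.94% includes probe sets below the detection level, and over the 6360 genes tested the share was 7.78%. The 13 probe sets measured only 5 genes, so they are not independent of one another. All 10 probe sets of ATP2A1, ATP2A2, SLN and PLN had a difference above 0, where 2809 of the 6360 genes tested did. They are repeated measures of the same few genes. The intervals of SLN, of every PLN probe set and of the dimmest ATP2A2 probe set included 0. The remaining SRI probe sets, with mean signals of 23.0 and 10.4, were below the detection level and had differences of 0.39 and −0.15 with wide intervals (adjusted p = 0.611 and 0.951).

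**Figure D2:**
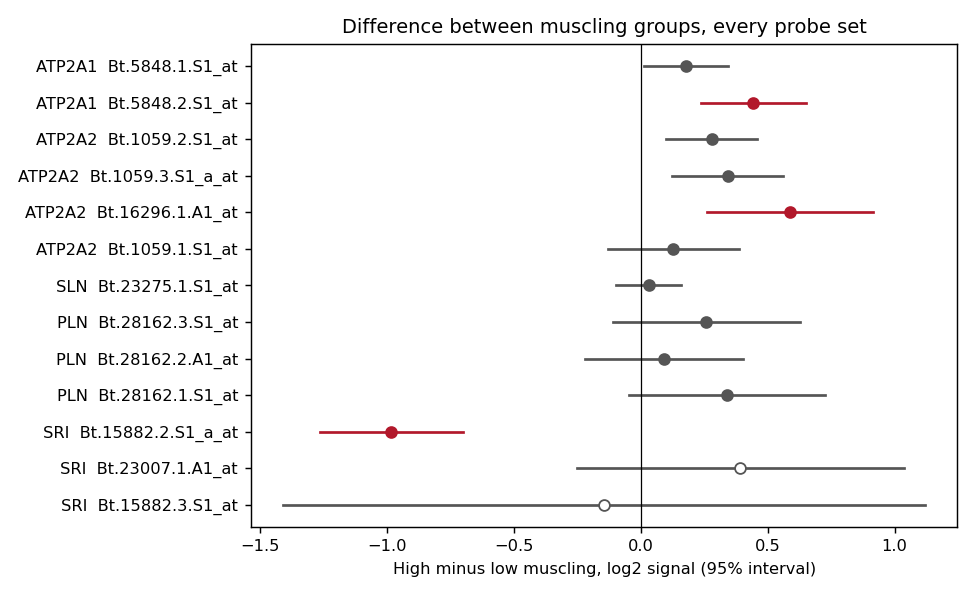
Difference between muscling groups (high minus low, log2 signal, horizontal axis) for each of the 13 probe sets of the members, with 95% intervals. Red marks an adjusted p under 0.05 over all 24016 probe sets, and open circles mark probe sets below the detection level. The called SRI probe set lay at −0.98. Every ATP2A1, ATP2A2, SLN and PLN probe set lay above 0, several with intervals that included 0.

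The 2 probe sets of ATP2A1 disagreed on sires. They correlated with r = 0.458 over the 40 animals, and with r = 0.655 once the mean of each sire was removed. Sire 11 had the lowest mean of the 6 sires on the main probe set, 13.86 on the log2 scale, but the highest on the second, 13.66. The sire test was accordingly past the threshold for the main probe set (adjusted p = 0.0496 in the fit over all probe sets) and not for the second (0.330). For ATP2A2, the main probe set correlated with the others at r = 0.928, 0.700 and 0.507. Its adjusted p for muscling in this fit was 0.0586, close to 0.0582 for the next brightest ATP2A2 probe set. The ATP2A2 probe set of mean signal 658, called for muscling, was also called for sires (adjusted p = 0.0118), and the other ATP2A2 probe sets were not. On it the mean of sire 17, 9.59 on the log2 scale, lay above that of sire 7, 9.22. On the dimmest ATP2A2 probe set that of sire 5, 9.16, lay above that of sire 2, 8.94. The 3 probe sets of PLN correlated with one another at r = 0.712 to 0.894 and were all called for sires (adjusted p = 0.00617, 0.00377 and 0.0421), against 7.92% of all probe sets. That share includes probe sets below the detection level, and over the 6360 genes tested it was 22.0%. The 3 probe sets are repeated measures of 1 gene.

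Animals with more of one member tended to have more, or less, of another. All 10 pairs of members were correlated over the 40 animals, with two-sided permutation tests (100000 permutations) adjusted over the 10 pairs. ATP2A1 and SLN, the fast fibre pump and sarcolipin, rose and fell together (r = 0.674, rho = 0.582, adjusted p = 5e-05), and did so with the mean of each sire removed (r = 0.694, adjusted p = 0.0002) and within each muscling group (r = 0.599 in high and 0.780 in low). Among all pairs of genes tested 0.352% had an r as far from 0. Without the 2 animals of most extreme ATP2A1 signal r was 0.624.

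ATP2A2 and SRI ran against each other (r = −0.643, rho = −0.689, adjusted p = 5e-05). As SRI nearly separated the muscling groups, the relation was also taken within them, where r was −0.525 in high (adjusted p = 0.0689) and −0.359 in low muscling (adjusted p = 0.224). It was −0.474 with sire means removed (adjusted p = 0.0191). PLN and SRI had r = −0.558 (rho = −0.479, adjusted p = 0.0007), with −0.424 after sire means were removed (adjusted p = 0.0293), −0.726 in low (adjusted p = 0.0009) and −0.152 in high muscling (adjusted p = 0.667). ATP2A1 and SRI had r = −0.459 (rho = −0.487, adjusted p = 0.00628), and −0.534 after removal of sire means (adjusted p = 0.0091), but −0.160 in high (adjusted p = 0.667) and −0.338 in low muscling (adjusted p = 0.224), and −0.343 once the signal of the added control RNAs was regressed out (adjusted p = 0.0610). Without the 2 animals farthest from the median of the first gene these 3 values were −0.624, −0.533 and −0.400. Without sire 2 the value for ATP2A1 and SRI was −0.272. Over the mean of all probe sets of a gene, of which only 1 of the 3 of SRI was detected, none of the 3 relations passed: r was −0.274 for ATP2A2 (adjusted p = 0.144), −0.174 for PLN (adjusted p = 0.403) and −0.364 for ATP2A1 (adjusted p = 0.0526).

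The pumps themselves correlated with r = 0.511 (rho = 0.565, adjusted p = 0.0017), which was 0.396 with sire means removed (adjusted p = 0.0191), 0.436 without the 2 farthest animals and 0.292 without sire 2 (adjusted p = 0.183). Within the muscling groups the r of the pumps was 0.503 in high and 0.314 in low. ATP2A2 and PLN, pump and inhibitor of slow fibres, had r = 0.408 (rho = 0.424, adjusted p = 0.0161), but −0.0900 in high and 0.489 in low muscling. That relation moved with the animals and settings used. It was 0.428 with sire means removed (adjusted p = 0.0270), 0.527 after quantile normalization (adjusted p = 8.6e-04) and 0.678 over probe set means (adjusted p = 0.0001), but 0.271 without the 2 farthest animals (adjusted p = 0.141). With a sire left out it ran from 0.196 (without sire 16, adjusted p = 0.312) to 0.537 (without sire 2, adjusted p = 0.00275), and it was also not past the threshold without sire 5 (0.375) or sire 11 (0.377). ATP2A2 with SLN had r = 0.336 (rho = 0.353, adjusted p = 0.0501), and SLN with SRI r = −0.154 (rho = −0.172, adjusted p = 0.430). With sire means removed both passed the threshold, at 0.393 (adjusted p = 0.0191) and −0.344 (adjusted p = 0.0423). The 2 inhibitors, SLN and PLN, had r = −0.0526 (rho = −0.000375, adjusted p = 0.748). ATP2A1 with PLN had r = −0.126 (rho = −0.0844, adjusted p = 0.487), but −0.719 in high muscling alone (adjusted p = 0.0066) and 0.0253 in low muscling. The permutations in high muscling ran across its sires, of which sire 11 had the lowest ATP2A1 mean and the highest PLN mean. With the mean of each sire removed, over all 40 animals, r was 0.0688 (adjusted p = 0.732). Over probe set means it was 0.335 (adjusted p = 0.0685).

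**Figure D3:**
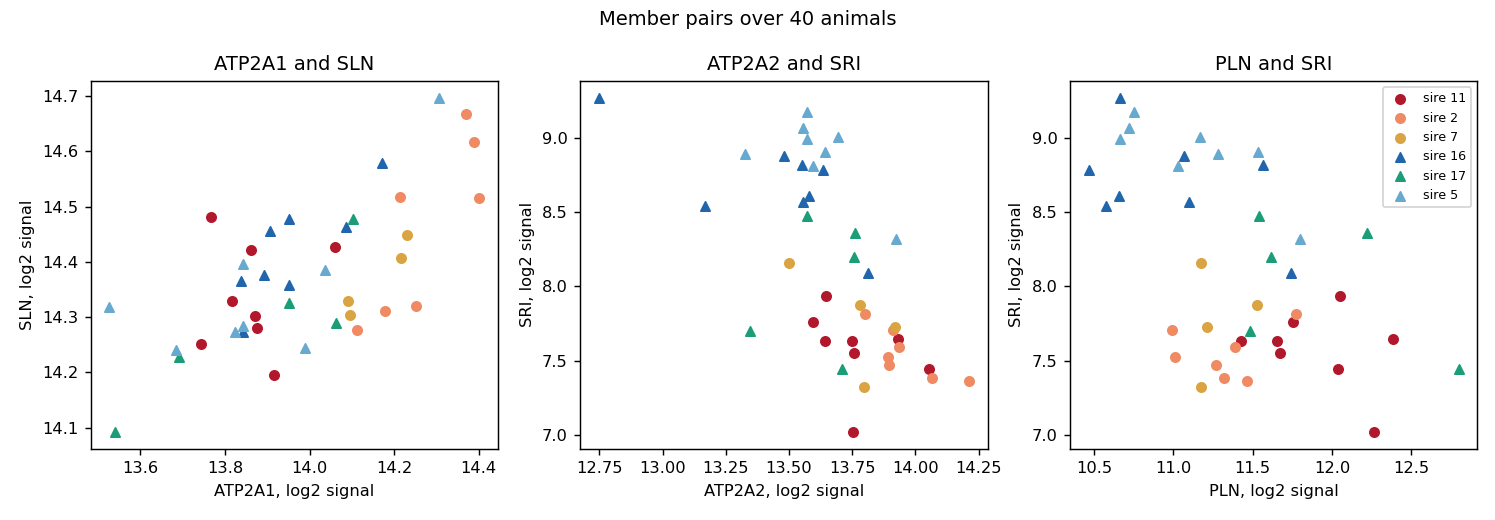
Log2 signals of pairs of members, 1 point per animal, coloured by sire, with circles for high and triangles for low muscling: ATP2A1 with SLN, ATP2A2 with SRI, and PLN with SRI. ATP2A1 and SLN rose together over all animals (r = 0.674), while ATP2A2 and SRI ran in opposite directions (r = −0.643) with the muscling groups placed apart along the SRI axis.

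Several members are known from one fibre type, and each was set against the mean standardised log2 signal of sarcomere genes. MYH7, MYL2, MYL3, TNNC1, TNNT1 and TPM3 stood for slow fibres, and MYH1, MYL1, TNNC2, TNNI2, TNNT3 and ACTN3 for fast fibres. These 10 relations were tested and adjusted together. ATP2A1 followed the fast genes (r = 0.721, rho = 0.682, adjusted p = 5e-05) and had a weaker r, not past the threshold, with the slow genes (r = 0.278, rho = 0.276, adjusted p = 0.106), which passed with sire means removed (r = 0.395, adjusted p = 0.0136). SLN followed both, with r = 0.759 for fast (rho = 0.771, adjusted p = 5e-05) and 0.457 for slow genes (rho = 0.448, adjusted p = 0.00558). ATP2A2 had r = 0.466 with slow genes (rho = 0.473, adjusted p = 0.0049) and 0.581 with fast genes (rho = 0.640, adjusted p = 1.667e-04). With sire means removed the order for ATP2A2 turned, to 0.725 with slow and 0.455 with fast genes, a difference that was not tested.

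PLN had r = 0.319 with slow genes (rho = 0.311, adjusted p = 0.0654), which became 0.541 with sire means removed (adjusted p = 0.00268), and 0.231 with fast genes (rho = 0.288, adjusted p = 0.169). SRI had r = −0.522 with fast genes (rho = −0.556, adjusted p = 0.00173) and −0.0581 with slow genes (rho = −0.123, adjusted p = 0.722), the latter becoming −0.367 with sire means removed (adjusted p = 0.0355). Without the 2 animals of most extreme marker signal, r with fast genes was 0.706 for ATP2A1, 0.536 for ATP2A2, 0.779 for SLN, 0.251 for PLN and −0.479 for SRI, and with slow genes 0.232, 0.485, 0.385, 0.298 and −0.0676. These relations depended on scaling. After quantile normalization, which gives all arrays the same distribution of signals, r with fast genes was 0.359 for ATP2A1, 0.184 for ATP2A2, −0.00606 for SLN and −0.228 for SRI, and none of these was past the threshold.

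**Figure D4:**
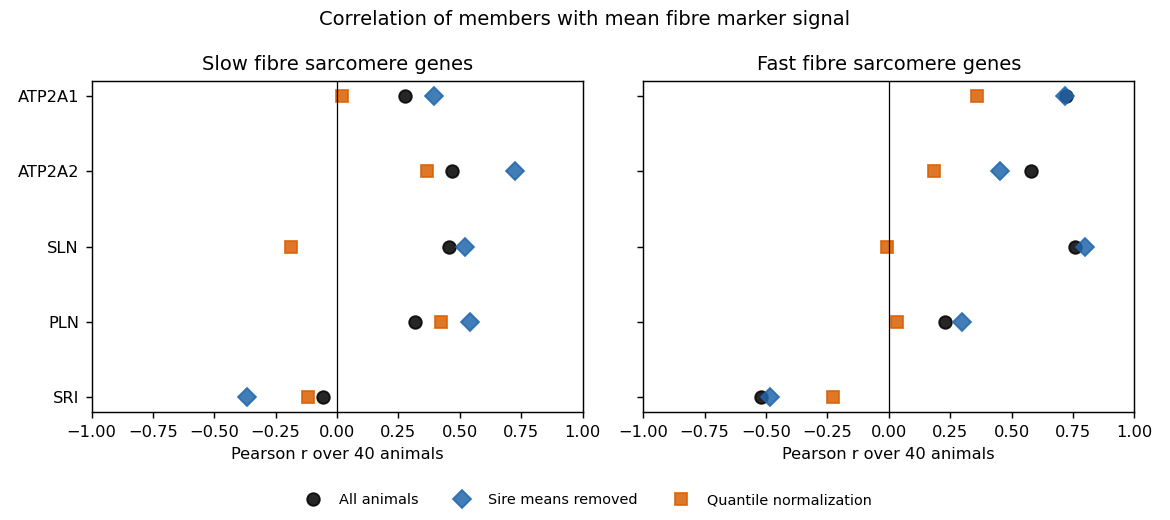
Pearson r over 40 animals (horizontal axis) between each member and the mean signal of slow fibre (left) and fast fibre (right) sarcomere genes, for all animals, with sire means removed, and after quantile normalization. ATP2A1 and SLN reached 0.721 and 0.759 with fast genes, and after quantile normalization lay at 0.359 and −0.00606.

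The genes whose signals most resembled each member over the 40 animals were taken as the 3 with the highest r. For ATP2A1 these were PYGM, the glycogen phosphorylase of muscle (r = 0.831), TNPO3, a nuclear import receptor (0.826), and STIM1, the calcium sensor of the store (0.773). With sire means removed these were 0.792, 0.773 and 0.624. For ATP2A2 they were MYH7, the myosin heavy chain of slow fibres (0.712, and 0.712 with sire means removed), PPP1CB, a catalytic subunit of protein phosphatase 1 (0.680), and CAPN3, a muscle calpain (0.677). The values of PPP1CB and CAPN3 fell to 0.397 and 0.483 with sire means removed. SLN was most like 3 sarcomere genes of fast fibres, MYL11 (0.887), MYL1 (0.848) and TNNI2 (0.834), which had 0.894, 0.886 and 0.847 with sire means removed. These values were taken without quantile normalization, after which the relation of SLN with the fast genes as a set was lost, as given above. PLN was most like PPP3CA, the catalytic subunit of calcineurin (0.766), YTHDF3, a reader of methylated RNA (0.760), and SRRM2, a splicing factor (0.755). These 3 fell to 0.522, 0.505 and 0.470 with sire means removed. For SRI the annotation named PRL, the hormone prolactin (0.929), TMSB10, an actin-binding thymosin (0.903), and CLEC3B, tetranectin (0.901), which fell to 0.696, 0.502 and 0.618 with sire means removed.

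A wider list of 42 genes of calcium release, storage and entry was set beside the members. Of these, 24 had a probe set and 20 were tested. The median difference between muscling groups of the 20 was 0.14 against −0.04 over all genes. Of the 20, 14 lay above 0, against 2809 of all 6360. In high muscling 3 were called higher and 1 lower, 4 of 20 against 7.78% of all genes. The higher ones were CAMK2G, a calmodulin-dependent kinase (0.74, SE 0.18, adjusted p = 0.00867), JPH1, junctophilin, which holds the store against the surface membrane (0.58, SE 0.15, adjusted p = 0.0152), and ATP2B1, a calcium pump of the surface membrane (0.51, SE 0.08, adjusted p = 8.13e-05). The lower one was FKBP1A, which binds and steadies the ryanodine receptor (−0.32, SE 0.09, adjusted p = 0.0208).

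Among sires, 5 of the 20 genes differed, against 22.0% of all genes. They were FKBP1A (adjusted p = 0.00205), CACNA2D1, a subunit of the voltage-gated calcium channel (0.00121), STIM1 (4.15e-04), CALM3, a calmodulin gene (2.17e-04), and CAMK2G (4.71e-04). STIM1, which resembled ATP2A1 most after PYGM and TNPO3, was called for sires, as the main ATP2A1 probe set was, and not for muscling (difference 0.15, adjusted p = 0.615). The 2 sire calls are not separate results, because STIM1 and that probe set correlated over the same 40 animals (r = 0.773).

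**Figure D5:**
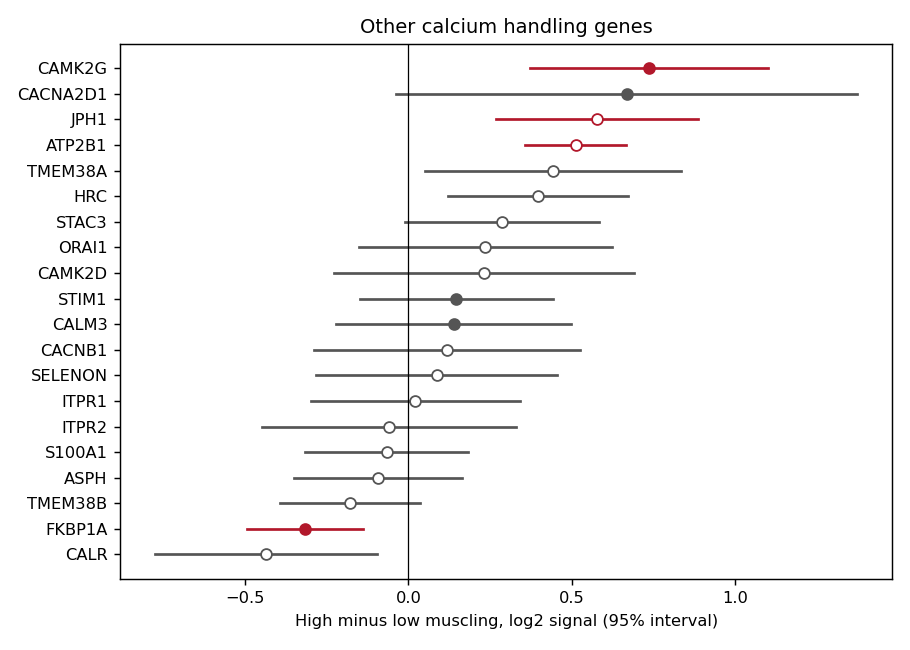
Difference between muscling groups (high minus low, log2 signal, horizontal axis, 95% intervals) for the 20 other calcium handling genes tested. Red marks an adjusted p under 0.05 for muscling and a filled symbol a call among sires. FKBP1A was the called gene below 0, at −0.32, and CAMK2G, JPH1 and ATP2B1 lay above it at 0.74, 0.58 and 0.51.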

How the data were processed

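The deposited table held 1 column per array of signal intensity from the bovine GeneChip, made by the authors with MAS5 on a linear scale. The values ran from 0.1 to 36463.9, and their trimmed mean over the middle 96% was 200 on every array. No authors' comparisons were used. Genes were named through the platform annotation given with the data: of 24016 probe sets other than the 112 controls, 13292 had 1 symbol, 86 several and 10638 none. Signals were converted to log2 with no pseudocount, and a gene was tested where its brightest probe set had a mean signal at or above 61.8, the median over probe sets.

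Differences were fitted with limma 3.58.1 in R 4.3.3 (lmFit, eBayes), with sire as a random block (duplicateCorrelation, correlation within sires 0.135) for muscling and an F test over 4 contrasts of sire means for sires. P-values were adjusted by Benjamini-Hochberg, calls were at an adjusted p under 0.05, and intervals are at 95%. Correlations used scipy 1.17.1 with 100000 permutations, whose smallest p is 1e-05. Animals were the replicates and sires the family. The labels gave no hybridisation batch or date, so none was tested, and arrays have no read depth. The script was tested on simulated data.

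The named genes were the members with all their probe sets, the genes of the wider list called in either fit, and for each member the 3 genes of highest r. The members and lists were chosen with earlier results of these data known. Alternatives covered the block, scaling, floor, pseudocount, filter, probe set choice, control covariates and each sire left out. The probes' and genes' sequences and positions were not used here.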

Additional observations from a re-analysis of the deposited data

Results flagged for a closer look

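In each of 30 combinations of a member and a sire's progeny, the highest and the lowest animal were compared with the rest of that family by the gap to the nearest animal over the whole range. In 3 of them an animal stood further out than Dixon's 95% limit, where chance gives about 1 in 20. Progeny 32 of sire 5 had the highest SLN signal of the 8 paternal sibs, 26553.7, with the next at 21569, and also their lowest SRI signal, 319.4, with the next at 451. It also had their highest ATP2A1 (20244), ATP2A2 (15538) and PLN (3556) signals, within the limit. The SLN and SRI flags rest on the same array and are not separate results. Progeny 98 of sire 7 had the highest PLN signal of its family of 4, 2945.8, with the next at 2369. In an alternative chosen after seeing the data, the SRI difference without progeny 32 was −0.98 (limma, adjusted p = 1.47e-04).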

How the results depend on the processing

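The SRI difference kept its direction under all alternatives, but as 1 value per sire it was −0.91 (limma, adjusted p = 0.198), and as the mean over its probe sets, of which only 1 was detected, −0.24 (adjusted p = 0.694, and 0.964 among sires). ATP2A1 reached the threshold after quantile normalization (0.25) and as the mean over its probe sets (0.31), ATP2A2 without the sire block (0.28, adjusted p = 0.00335) and after quantile normalization (0.36). SLN changed sign with the spiked controls as a covariate (−0.0200). The ATP2A1 sire test was lost after median centring (adjusted p = 0.0526), over the mean of probe sets (0.548) and with the GAPDH ratio as a covariate (0.0663, chosen after seeing the data). Over the sires left out in turn, differences ranged from 0.0801 to 0.32 for ATP2A1, 0.20 to 0.32 for ATP2A2, −0.00632 to 0.0676 for SLN and 0.0162 to 0.48 for PLN, and sire adjusted p-values from 0.00334 to 0.800 for ATP2A1, 0.00191 to 0.0622 for PLN and 0.00242 to 0.514 for SRI. Members called numbered 2 without the block, 0 on sire means, 3 after quantile normalization and 1 to 3 with a sire left out.

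Genes called for muscling numbered 1586 without the block, 0 on sire means (886 at unadjusted p under 0.05, against 1386 in the fit reported), 308 with the spiked controls as a covariate, and 23 (without sire 5) to 1221 (without sire 17), with 29, 272, 290 and 685 without sires 16, 7, 2 and 11. Genes called among sires numbered 407 (without sire 11) to 1389 with a sire left out, and 846 without sire 17. ATP2A1 with PLN was 0.0688 with sire means removed, 0.0253 in low muscling, 0.0325 after quantile normalization and 0.335 over probe set means, and −0.321 to 0.0472 with a sire left out. SLN with PLN was 0.245 with sire means removed and −0.207 to 0.0976 with a sire left out. In high muscling alone ATP2A2 with PLN was −0.0900, SLN with SRI 0.0169 and PLN with fast genes −0.167. After quantile normalization SLN had −0.186 with slow and −0.00606 with fast genes, and SRI had 0.123 with slow genes with the spiked covariate and 0.104 over probe set means. No paired analysis was possible because each progeny number belonged to 1 animal and no sire had progeny in both groups. The number of sires, 3 a group, limits what the muscling comparison can show.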
